A study of Homo sapiens with 16 samples.

Results

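Complement is a cascade of plasma and cell-surface proteins that marks targets for uptake and lyses membranes. C1r and C1s are the proteases of the first complex of the classical pathway, C3 is the protein on which all pathways meet, and factor B forms the alternative pathway's C3 convertase. C1 inhibitor and factor I hold the cascade in check in fluid, while CD46, CD55 and CD59 protect a cell's own membrane. The 9 genes for these proteins, C1R, C1S, C3, CFB, SERPING1, CFI, CD46, CD55 and CD59, were chosen by name out of 20356 genes in the count table, and all 9 had a row.

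The study asked what the RNA helicase DDX4 contributes to tumor-promoting properties of PC3, a long-established line of human prostate cancer cells. RNA was sequenced from 4 groups of 4 libraries. Control monolayer and DDX4-null monolayer libraries came from PC3 cells grown in culture. Control tumor and DDX4-null tumor libraries came from PC3 xenografts, tumors that human cells form in a host animal. The sources used here do not give how DDX4 was removed, whether a null line is 1 clone, the host animal, its age or the site of the tumors. Nothing in the labels says that the 4 libraries of a group are separate cultures or animals. The p-values below therefore cover the spread among these libraries, and that spread may be technical only.

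Library totals ran from 14368124 to 18836982 counts in control monolayers, 16151344 to 21763745 in null monolayers, 13480294 to 25443952 in control tumors and 12204254 to 17961710 in null tumors. DDX4 itself had 10, 7, 13 and 11 counts summed over the 4 libraries of these groups, so its counts do not check the labels. All 7 epithelial and line markers looked at, such as KRT8 and EPCAM, had a mean of at least 1 CPM (counts scaled to a library of 1e6) in every group. The summed level of 10 fibroblast markers was 24.0 to 31.6 CPM in control monolayers, 45.2 to 58.2 CPM in null monolayers and 1403.1 to 1906.4 CPM in control tumors. In null tumors it was 1679.5 to 1930.7 CPM in 3 libraries and 11012.8 CPM in null tumor 1, which stands apart. The summed level of 10 leukocyte markers was also highest in null tumor 1, at 72.4 CPM against 14.4 to 36.7 CPM in the other null tumors, 15.1 to 33.3 CPM in control tumors and 1.16 to 2.51 CPM in all monolayers. STAT3, which PC3 is known to lack, had 0 counts in all 8 monolayer libraries and 5.03 to 12.6 CPM in the 8 tumors, with the highest value in null tumor 1. It was singled out after its values were seen. The summed level of 6 skeletal muscle markers was 13.8 to 19.2 CPM in monolayers and 141 to 361 CPM in tumors. What part RNA of other cells has in the tumor values was not tested, and in bulk RNA more cells of a type and more RNA per cell cannot be told apart.

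Many complement genes respond to interferons, interleukin 6 and interleukin 1 through STAT, IRF, NF-kB and C/EBP factors. For that reason the promoters of CFB, C1R and CD55 are shown here. CFB holds matches to 3 of the 4 motifs searched, C1R is the gene with the largest monolayer change among those found, and CD55 holds no match. Each line gives the 250 bases before a RefSeq start site (GRCh38.p14), 5′ to 3′ on the gene's strand, with motif matches in capitals.
CFB, chr6:31945845-31946094, plus strand: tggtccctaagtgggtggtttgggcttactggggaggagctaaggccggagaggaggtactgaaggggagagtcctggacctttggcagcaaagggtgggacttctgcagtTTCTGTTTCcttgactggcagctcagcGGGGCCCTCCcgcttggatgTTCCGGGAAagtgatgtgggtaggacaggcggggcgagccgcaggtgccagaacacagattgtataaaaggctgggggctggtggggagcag
C1R first start, chr12:7092446-7092695, minus strand: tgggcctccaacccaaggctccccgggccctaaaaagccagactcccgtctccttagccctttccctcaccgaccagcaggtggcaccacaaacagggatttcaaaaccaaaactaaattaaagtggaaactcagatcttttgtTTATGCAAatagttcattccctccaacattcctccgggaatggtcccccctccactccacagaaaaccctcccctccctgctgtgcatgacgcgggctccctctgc
C1R second start, chr12:7091894-7092143, minus strand: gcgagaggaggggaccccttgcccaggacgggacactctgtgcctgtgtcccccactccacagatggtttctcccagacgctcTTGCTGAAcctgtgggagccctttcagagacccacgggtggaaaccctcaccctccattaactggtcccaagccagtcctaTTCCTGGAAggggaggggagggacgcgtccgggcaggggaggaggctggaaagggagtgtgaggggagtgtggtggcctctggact
CD55, chr1:207321428-207321677, plus strand: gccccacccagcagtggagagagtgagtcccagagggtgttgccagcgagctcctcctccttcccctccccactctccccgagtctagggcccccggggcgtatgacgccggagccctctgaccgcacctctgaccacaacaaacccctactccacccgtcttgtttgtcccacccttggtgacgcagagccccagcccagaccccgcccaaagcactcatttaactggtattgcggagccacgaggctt
The motifs were an interferon-stimulated element (GAAANNGAA), a gamma-activated site (TTCNNNGAA), a C/EBP site (TTGCNNAA) and the NF-kB consensus, searched on both strands from 250 bases before to 50 bases after each start site. In CFB the interferon-stimulated element began at position -139 on the minus strand, the NF-kB match at -112 and the gamma-activated site at -92, with no overlap between them. The first C1R start had a C/EBP match at -106, and the second had a C/EBP match at -167 and a gamma-activated site at -86. The table held 11 promoters of 6 of the 9 genes (CFB, C1R, CD55, CD46, CD59 and CFI). CD59 had 1 gamma-activated site in the windows of 2 of its 4 start sites, at -128 from one and -184 from the other, and 2 C/EBP matches at a different start, at -191 and -53. CD46, CD55 and CFI had no match to any of the 4 motifs. Of all 35116 promoters in the table, 8.11% held the interferon-stimulated element, 7.66% the gamma-activated site, 10.5% the C/EBP site and 11.3% the NF-kB consensus. A match is a string of letters and not a measured binding site.

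Per exon length, the membrane regulators made up nearly all of the RNA of the 9 genes. CD46, CD55 and CD59 together held 97.5% to 97.8% of the genes' summed TPM in control monolayers, 99.3% to 99.4% in null monolayers, 95.8% to 96.4% in control tumors and 89.9% to 97.9% in null tumors. TPM are counts per exon length, scaled to a fixed sum per library, and only this scale is used to set genes side by side. In control monolayers CD55 led with 538 to 573 TPM, then CD59 with 208 to 249, CD46 with 80.6 to 87.3, C3 with 9.25 to 10.3, C1R with 6.95 to 8.28 and C1S with 3.35 to 4.34, and no neighbours in that order overlapped. Null monolayers kept this order without overlap, from CD55 at 709 to 790 TPM down to C1S at 0.366 to 0.625 TPM. In control tumors the ranges of CD59 (283 to 348 TPM) and CD55 (226 to 286 TPM) met. C1R (10.5 to 13.7 TPM) stood above SERPING1 (4.26 to 9.28 TPM), while SERPING1 overlapped C1S (3.55 to 6.08 TPM) and C3 had 1.00 to 3.55 TPM.

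**Figure D1:**
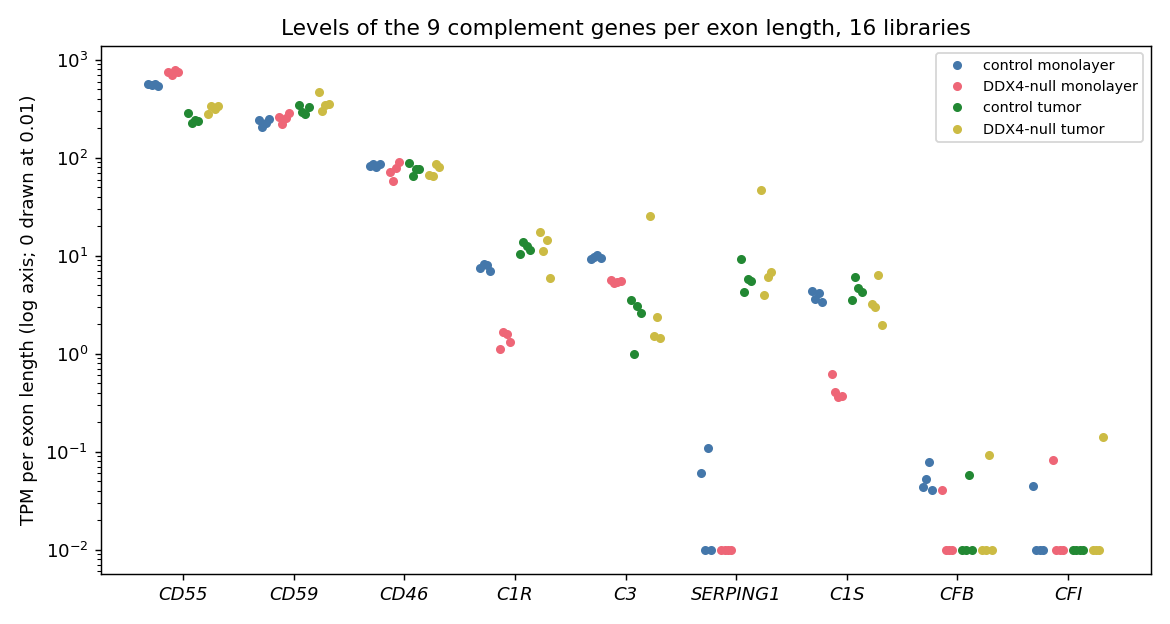
TPM per exon length of each of the 9 genes (log axis; a value of 0 is drawn at 0.01), with 1 point per library coloured by group. CD55, CD59 and CD46 lie at or above 57.9 TPM in all 16 libraries, C1R, C1S and C3 lie lower, SERPING1 is near 0 in monolayers, and CFB and CFI are near 0 throughout.

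Changes between groups were tested with edgeR's quasi-likelihood test over all genes, with Benjamini-Hochberg adjustment at 0.05, and are log2 changes with a standard error (SE). In null against control monolayers 6 of the 9 genes passed the filter on low counts. Of these, C1R, C1S, C3 and CD46 fell and CD55 rose, where 32.3% of all 13006 genes tested were lower and 35.0% were higher. In null against control tumors 7 passed the filter and CD55 alone was called, higher, against 0.981% of 12942 genes higher and 1.10% lower. No member was called lower there by edgeR or DESeq2, nor at an unadjusted p under 0.05. In control tumors against control monolayers 2 of 7 were higher (C1R, SERPING1) and 3 lower (C3, CD46, CD55), against 33.9% and 31.0% of 12858 genes. In null tumors against null monolayers 4 of 7 were higher (C1R, C1S, CD59, SERPING1) and CD55 was lower, against 34.6% and 35.3% of 13277 genes. In the monolayer and in both tumor-against-monolayer comparisons most genes tested changed, so a call there does not set a gene apart. With library totals as the scaling, 36.6% and not 47.0% of the genes called in tumors were higher, 66.0% and not 52.2% for control tumors over control monolayers. These comparisons share libraries, so their values stand side by side and are not independent. The median log2 change of the members that passed the filter was -0.60 against 0.021 over all genes in monolayers, and 0.35 against -6.1e-04 in tumors. It was 0.071 against 0.02 for control tumors over control monolayers and 0.54 against -0.0025 for null tumors over null monolayers.

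**Figure D2:**
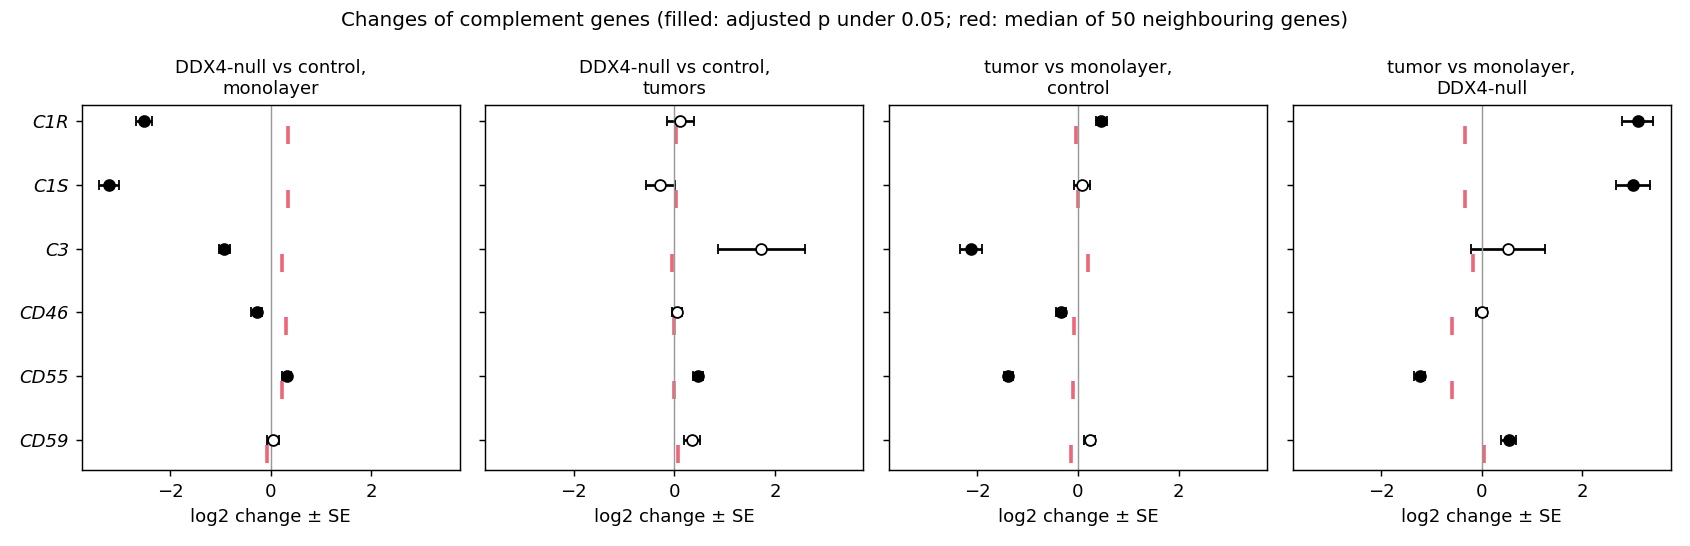
Log2 change with its SE for 6 genes in the 4 comparisons of 2 groups (filled points have an adjusted p under 0.05), with the median change of the 50 nearest tested genes on the same chromosome in red. C1R and C1S sit at -2.51 and -3.21 in null against control monolayers and at 3.10 and 3.01 in null tumors against null monolayers, away from their neighbours in both.

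The classical pathway proteases were the genes with the largest fall in null monolayers, and their levels in null tumors lay on both sides of those in control tumors or overlapped them. C1R had 13.3, 13.4, 13.5 and 13.1 CPM in the 4 control monolayers, scaled here and below by edgeR's TMM factors, and 1.77, 3.07, 2.43 and 2.09 CPM in null monolayers. It had 15.7, 21.0, 18.8 and 17.4 CPM in control tumors and 30.7, 18.7, 21.2 and 9.34 CPM in null tumors. All null monolayers lay below all other libraries, control tumors lay above control monolayers, and null tumors spread around the control tumors on both sides. Null monolayers were lower than control monolayers by -2.51 (SE 0.16, n = 4 per group, edgeR adjusted p = 4.3e-11). In tumors the genotype difference was 0.12 (SE 0.26, edgeR adjusted p = 0.825), and -0.14 without null tumor 1. Control tumors were above control monolayers by 0.46 (SE 0.11, edgeR adjusted p = 0.00175), a call lost in a model of all 16 libraries (adjusted p = 0.0819), and null tumors above null monolayers by 3.10 (SE 0.31, edgeR adjusted p = 1.2e-06).

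C1S, the substrate of C1r and the protease that cleaves C4 and C2, was also lowest in null monolayers, at lower counts. Its levels were 8.48, 6.39, 7.62 and 6.92 CPM in control monolayers and 1.07, 0.828, 0.607 and 0.649 CPM in null monolayers, from 462 and 58 counts in all. Control tumors had 5.82, 10.2, 7.59 and 7.09 CPM and null tumors 6.19, 5.41, 10.2 and 3.43 CPM. Null monolayers lay below all other libraries, and the other 3 groups overlapped. The change was -3.21 (SE 0.20, edgeR adjusted p = 4.2e-11) in monolayers and -0.28 (SE 0.29, edgeR adjusted p = 0.595) in tumors. Null tumors exceeded null monolayers by 3.01 (SE 0.34, edgeR adjusted p = 3.9e-06), while control tumors differed from control monolayers by 0.071 (SE 0.16, edgeR adjusted p = 0.723).

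The genotype effect of both proteases differed between tumors and monolayers. The difference of the 2 effects, from 1 model of all 16 libraries, was 2.93 for C1S (SE 0.39, edgeR adjusted p = 3.9e-06) and 2.63 for C1R (SE 0.34, edgeR adjusted p = 2.6e-06). It was called higher for 3 of the 7 members tested (C1R, C1S and C3) and lower for none, where 26.0% of 13603 genes were higher and 26.8% lower (38.2% of those called were higher with library totals, 49.2% with TMM), and by DESeq2 for C1R and C1S. No member was lower at an unadjusted p under 0.05 either. C1R and C1S lie next to each other on chromosome 12. Their 50 nearest tested genes had a median change of 0.34 in null monolayers, opposite in sign to both. The ratio of C1R to C1S counts was 1.56 to 2.10 in control monolayers, 1.65 to 4.00 in null monolayers, 2.05 to 2.70 in control tumors and 2.07 to 4.96 in null tumors, overlapping in all groups. C1R shares exons on its strand with C1RL, and C1S with EMG1, in GENCODE v29. The sources used here do not give how reads on shared exons were counted. Such reads may be missing from the counts or assigned to either gene, and their part was not tested. C1RL itself differed by 0.026 in monolayers (SE 0.11, edgeR adjusted p = 0.847).

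**Figure D3:**
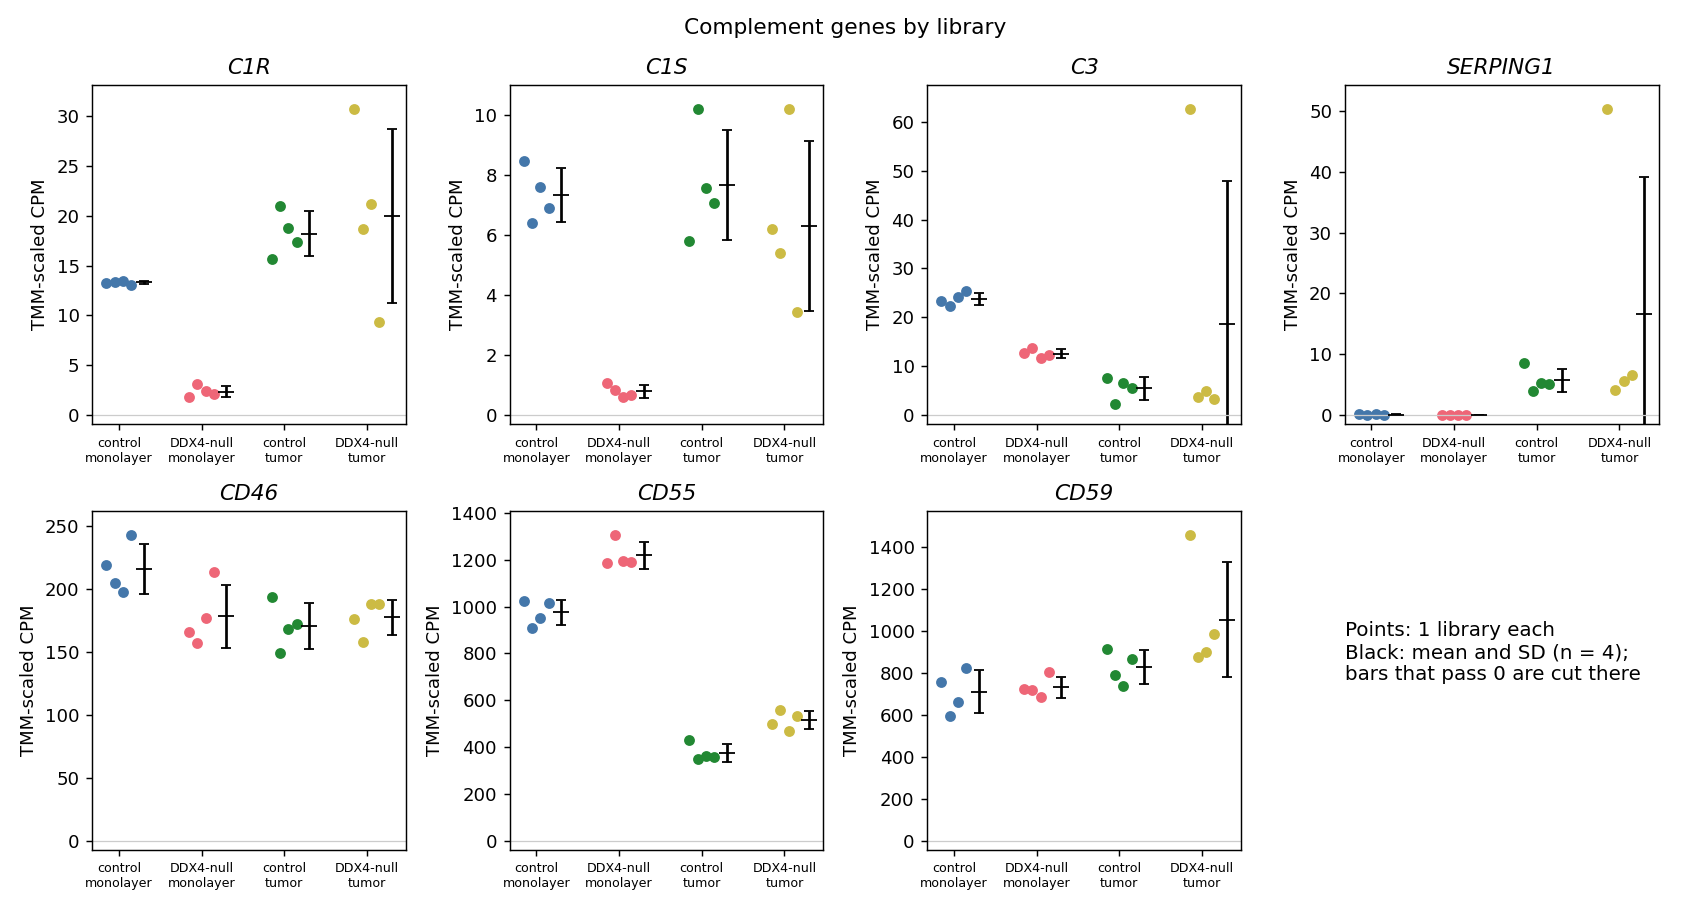
TMM-scaled CPM of 7 genes by group, 1 point per library, with the mean and SD of each group (n = 4) in black and bars that would pass 0 cut there. C1R and C1S are lowest in null monolayers, CD55 is lower in all tumors than in all monolayers, and null tumor 1 is far above the other null tumors for C3 (62.6 CPM) and SERPING1 (50.3 CPM).

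C3, the central component, was lower in null than in control monolayers, and 7 of the 8 tumors lay below all monolayers. It had 23.3, 22.4, 24.1 and 25.3 CPM in control monolayers and 12.6, 13.7, 11.7 and 12.2 CPM in null monolayers. Control tumors had 7.50, 2.18, 6.43 and 5.57 CPM, and null tumors had 62.6, 3.57, 4.87 and 3.24 CPM. The 2 monolayer groups did not overlap, and null tumor 1 exceeded every other library. The monolayer change was -0.92 (SE 0.11, edgeR adjusted p = 3.2e-07). In a model of all 16 libraries, where the tumors enter the estimate of the spread, its size was the same and its adjusted p was 0.197.

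The tumor values of C3 rest on null tumor 1. Null against control tumors gave 1.73 (SE 0.87, edgeR adjusted p = 0.274) with that library and -0.47 (adjusted p = 0.473) without it. Null tumors against null monolayers gave 0.52 (SE 0.74, edgeR adjusted p = 0.542) with it and -1.66 (adjusted p = 4.1e-08) without it. The difference of the 2 genotype effects was 2.63 (SE 0.91, edgeR adjusted p = 0.0194) with it and 0.47 (adjusted p = 0.223) without it. Control tumors were lower than control monolayers by -2.12 (SE 0.22, edgeR adjusted p = 2.1e-07), a comparison that does not hold that library.

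Factor B and factor I were at the limit of detection. CFB, the protease of the alternative pathway, had 5 counts in control monolayers, 1 in null monolayers, 2 in control tumors and 2 in null tumors, each summed over 4 libraries. The ratio of control to null monolayers was 5.88 with a 95% counting interval of 0.658 to 278, so no difference was detectable at this depth. CFI, which degrades C3b and C4b, had 1, 2, 0 and 3 counts in the same order. No library had more than 3 counts of either gene, and 3 counts are the limit that a count of 0 allows, which is 0.110 to 0.265 CPM per library. Neither gene passed the filter in any comparison. CFB shares exons on its strand with C2, which had 11, 15, 22 and 13 counts, and with AL645922.1, whose counts are not given here. CFI shares exons on its strand with AC126283.2, which has no row in the count table. How reads on shared exons were counted is not given in the sources used here. Their part in the low counts of CFB and CFI was not tested. Intervals and limits cover counting error only.

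SERPING1, which encodes C1 inhibitor, the inhibitor of C1r and C1s, was detected in tumors and near 0 in monolayers. Control monolayers had 1, 0, 2 and 0 counts and null monolayers had none. Control tumors had 121, 68, 142 and 100 counts, or 8.48, 4.00, 5.18 and 5.07 CPM, and null tumors had 569, 75, 96 and 106 counts, or 50.3, 4.05, 5.50 and 6.60 CPM. Every tumor lay above every monolayer, and null tumor 1 stood apart from the other 7 tumors. Control tumors exceeded control monolayers by a ratio of 115 (counting interval 39.0 to 558, edgeR adjusted p = 2.1e-09 over all genes). Null tumors were at least 328-fold higher than null monolayers, taking 3 counts over the group as the limit (edgeR adjusted p = 1.8e-04), and at least 131-fold higher without null tumor 1, which held 569 of the 846 counts. Null against control tumors gave 1.52 (SE 0.70, edgeR adjusted p = 0.241) with null tumor 1 and -0.061 (adjusted p = 0.921) without it. With 0 counts in null monolayers, the difference of its genotype effects between tumors and monolayers has no measured size.

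Most fibroblast markers moved with SERPING1. All 10 were higher in every control tumor than in every control monolayer, and 9 of 10 in every null tumor than in every null monolayer. The exception was PDGFRA, at 8.92 to 9.69 CPM in null monolayers and 3.86 to 12.3 CPM in null tumors. The share of all genes higher in every tumor than in every matching monolayer was not counted. By edgeR, 33.9% of all genes tested were called higher in the control comparison and 34.6% in the null comparison. COL1A1 had 30.6 to 43.7 CPM in null monolayers, where SERPING1 had no count. In null tumor 1 PDGFRB had 9.99 CPM against 7.68 to 9.34 CPM in the other null tumors, while DCN had 20.1 CPM against 2.43 to 2.63 CPM. Over all 16 libraries, the genes with the most similar log2 profile were CD248, a stromal cell antigen, and DCN, a marker in the fibroblast list, each with r = 0.993 among 12474 genes searched. This is a description over libraries that share 4 groups and include null tumor 1, where both SERPING1 and DCN were highest. CD248 had a mean of 0 CPM in both monolayer groups, 2.27 CPM in control tumors and 7.36 CPM in null tumors. Its spread among the libraries of a group is not given here, so the tumor means do not set the genotypes apart. In monolayers THY1 had no counts in either group, and DCN, FAP and POSTN had none in null monolayers. STAT3 was at least 123-fold higher in control tumors and at least 168-fold higher in null tumors than in the matching monolayers, from 461 and 434 counts against 0. The part of host or stromal RNA in the tumor levels of SERPING1, C3 and C1R was not tested.

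**Figure D4:**
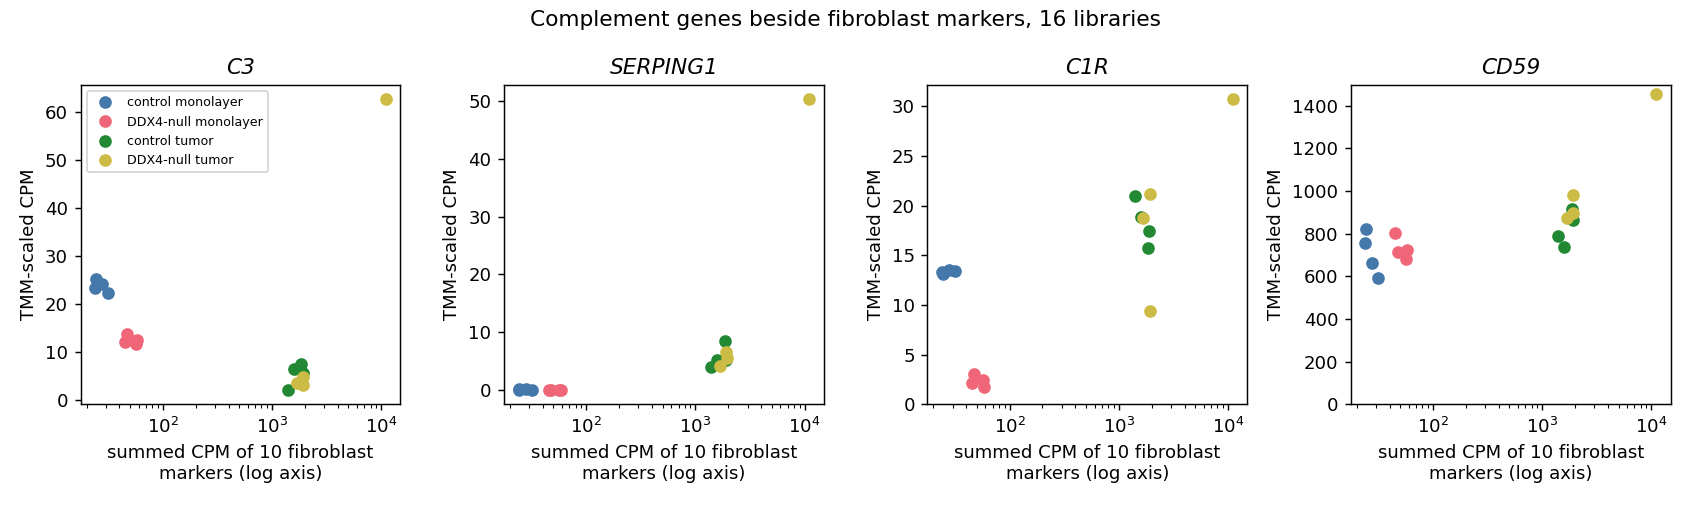
TMM-scaled CPM of C3, SERPING1, C1R and CD59 against the summed CPM of 10 fibroblast markers (log axis), 1 point per library coloured by group. Null tumor 1, at 11012.8 CPM of the markers, has the highest value of all 4 genes, and C3 in the other 7 tumors lies below its level in every monolayer.

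The membrane regulators each took a different course. CD55, or decay-accelerating factor, which breaks up C3 convertases, had 1023.7, 910, 953 and 1015.4 CPM in control monolayers and 1187.3, 1305.9, 1196.6 and 1189.6 CPM in null monolayers. It had 429, 347, 361 and 357 CPM in control tumors and 499, 557, 468 and 533 CPM in null tumors. No 2 groups overlapped: the order was null monolayers, control monolayers, null tumors, control tumors. Null was above control by 0.32 in monolayers (SE 0.09, edgeR adjusted p = 0.00551) and by 0.46 in tumors (SE 0.10, edgeR adjusted p = 0.0424). The 50 tested genes nearest CD55 had a median of 0.22 in the monolayer comparison and -0.0061 in the tumor comparison. The tumor call was lost with library totals as the scaling (0.39, adjusted p = 0.0680) and on leaving out 6 of the 8 libraries in turn (adjusted p = 0.0501 to 0.167), all but control tumor 1 and null tumor 1. The 2 genotype effects differed by 0.14 (SE 0.13, edgeR adjusted p = 0.382).

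CD55 was lower in tumors than in monolayers of both genotypes. The change was -1.38 in controls (SE 0.09, edgeR adjusted p = 1.4e-09) and -1.23 in null cells (SE 0.11, edgeR adjusted p = 3.4e-07). CD46 and CD55 lie in the same cluster on chromosome 1. The 50 tested genes nearest CD55 had a median of -0.10 in control tumors against control monolayers, and -0.58 in null tumors against null monolayers.

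CD46, or membrane cofactor protein, the cofactor of factor I, changed little. It had 219, 205, 198 and 243 CPM in control monolayers, 166, 157, 177 and 214 CPM in null monolayers, 194, 149, 168 and 172 CPM in control tumors and 176, 158, 188 and 188 CPM in null tumors. Every control monolayer exceeded every tumor, and the other pairs of groups overlapped. The change in null monolayers was -0.28 (SE 0.11, edgeR adjusted p = 0.0289), lost with library totals (-0.20, adjusted p = 0.103), with centring on each chromosome's median (-0.17, adjusted p = 0.177) and on leaving out 4 of the 8 libraries in turn, which were control monolayers 1 and 4 and null monolayers 1 and 2 (adjusted p = 0.0613 to 0.0923). In null against control monolayers the chromosome 1 median was -0.11, while the 50 tested genes nearest CD46 had a median of 0.30, opposite in sign to CD46. Control tumors were lower than control monolayers by -0.34 (SE 0.10, edgeR adjusted p = 0.00615), a call that library totals also ended (-0.17, adjusted p = 0.121). Null against control tumors gave 0.054 (SE 0.10, edgeR adjusted p = 0.780) and null tumors against null monolayers 0.0065 (SE 0.11, edgeR adjusted p = 0.963). The difference of the 2 genotype effects was 0.33 (SE 0.15, edgeR adjusted p = 0.0694).

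CD59, or protectin, which blocks the membrane attack complex, was the regulator that was higher in null tumors than in null monolayers. Its levels were 756, 593, 662 and 823 CPM in control monolayers, 722, 716, 683 and 801 CPM in null monolayers, 914, 788, 735 and 865 CPM in control tumors and 1454.2, 873, 896 and 983 CPM in null tumors. All null tumors lay above all monolayers, with null tumor 1 highest, and the other groups overlapped. Null tumors exceeded null monolayers by 0.54 (SE 0.15, edgeR adjusted p = 0.00662), and by 0.21 (adjusted p = 0.252) after centring on each chromosome's median, where the tested genes of chromosome 11 had a median of 0.33. Without null tumor 1 the uncentred change was 0.35 (adjusted p = 0.00849). The 50 tested genes nearest CD59 had a median of 0.045 in null tumors against null monolayers, unlike the chromosome as a whole. The genotype difference was 0.045 in monolayers (SE 0.11, edgeR adjusted p = 0.732), and 0.31 (adjusted p = 0.0172) after centring. The chromosome median was -0.27 in that comparison, and the median of the 50 tested genes nearest CD59 was -0.074. In tumors the genotype difference was 0.35 (SE 0.16, edgeR adjusted p = 0.233). Control tumors against control monolayers gave 0.23 (SE 0.11, edgeR adjusted p = 0.0772), and 0.40 (adjusted p = 0.00196) with library totals. The 2 genotype effects differed by 0.30 (SE 0.20, edgeR adjusted p = 0.208).

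Other genes closest in profile to a member over the 16 libraries are given as a description, with 4 groups behind each r. PORCN (r = 0.973) and ADGRF4 (r = 0.972) were closest to C1S, and PRTFDC1 (r = 0.974) and FLRT2 (r = 0.973) to C1R. TPD52L1 (r = 0.988) and TMEM156 (r = 0.986) were closest to CD55, and FAM162A (r = 0.970) and TSPAN5 (r = 0.939) to CD59. The likeness was lower for C3, with RGL1 (r = 0.920) and MXI1 (r = 0.903), and for CD46, with WDR11 (r = 0.890) and ACTR6 (r = 0.887). FLRT2 had 2.19 CPM in control monolayers, 0.0867 in null monolayers, 3.05 in control tumors and 5.79 in null tumors, and TMEM156 had 123, 176, 21.4 and 31.4 CPM in the same order.

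Of 56 other genes of complement pathways, regulators and receptors, 8 had no count in any library and 21 reached a mean of 1 CPM in some group. In null against control monolayers 16 were tested, 10 were higher and 5 lower, against 35.0% and 32.3% of all genes tested. The higher genes included 5 regulators. CSMD2, a membrane protein with complement control modules, was at least 151-fold higher (0 counts against 534, or 7.28 ± 0.581 CPM, SD, n = 4), and SUSD4, a membrane inhibitor of complement, at least 60.4-fold higher (0 counts against 213). CLU, or clusterin, a fluid-phase inhibitor of the terminal complex, rose by 1.09 (SE 0.12). CLU, C5, CFP and CFD were singled out after their values were seen.

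In null against control tumors 17 of the 56 were tested and none was called by edgeR, against 0.981% of all genes higher and 1.10% lower. At an unadjusted p under 0.05 there were 5 higher and 1 lower, and DESeq2 called CLU, whose edgeR change was 0.34 (SE 0.10, edgeR adjusted p = 0.0969). In control tumors against control monolayers 16 were tested, 10 higher and 3 lower, against 33.9% and 31.0% of all genes. COLEC12, a scavenger receptor with a collectin domain, was at least 93.4-fold higher (351 counts against 0) and C1QB, a chain of C1q made mainly by macrophages and related cells, at least 31.9-fold higher (120 counts against 0). In null tumors against null monolayers 21 were tested, 9 higher and 8 lower, against 34.6% and 35.3% of all genes. C1QB was at least 78.6-fold higher (203 counts against 0), and COLEC12 had 428 counts against 4. Of the 10 leukocyte markers 6 were higher in every control tumor than in every control monolayer, and 6 in every null tumor than in every null monolayer. These were not the same 6: AIF1, CSF1R and TYROBP were among them in both genotypes, CD163 only in controls and CD14 only in null libraries. CD68, at 0.110 to 0.574 CPM in control monolayers and 0.0588 to 0.350 CPM in control tumors, was not among them in either genotype. Nor was CD3E, and MS4A1 had no count in any library. The share of all genes that lay apart in the same way was not counted. The part of leukocyte RNA in the C1QB level was not tested. C5, which starts the terminal pathway, rose by 1.04 (SE 0.10) in control tumors and by 0.99 (SE 0.13) in null tumors over the matching monolayers.

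The genotype effect of the wider genes differed between tumors and monolayers for 14 of 22 tested, 6 higher in tumors and 8 lower, against 26.0% and 26.8% of all genes. ITGAX, a chain of complement receptor 4, had a difference of -5.83 (SE 0.91, edgeR adjusted p = 2.4e-05), with 0.0879 CPM in control monolayers and 7.82 CPM in null monolayers. SUSD4 was called as well, with 0 counts in control monolayers, so its size depends on the fit. CFP, or properdin, which stabilises the alternative pathway convertase, had a difference of 1.90 (SE 0.43, edgeR adjusted p = 0.00100), the same sign as C1R and C1S. CFD, the other alternative pathway gene of the wider list, had the opposite sign, at -0.73 (SE 0.25, edgeR adjusted p = 0.0182).

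Among 26 cytokines, receptors and transcription factors known to induce complement genes, 21 were tested in null against control monolayers, 3 higher and 16 lower, where 35.0% of all genes tested were higher and 32.3% lower. IL6 had 229 ± 31.3 CPM in control monolayers and 12.0 ± 1.01 CPM in null monolayers (SD, n = 4), a change of -4.26 (SE 0.12, edgeR adjusted p = 6.4e-16). IL1B had 927 ± 156 and 72.1 ± 8.11 CPM, a change of -3.68 (SE 0.13, edgeR adjusted p = 9.5e-15). In null against control tumors 22 were tested and CEBPD, a C/EBP factor, alone was called by edgeR, where 0.981% of all genes were higher and 1.10% lower. It had 12.5, 11.8, 9.35 and 11.9 CPM in control tumors and 19.3, 19.9, 18.3 and 14.3 CPM in null tumors, a change of 0.66 (SE 0.14, edgeR adjusted p = 0.0351). Its groups did not overlap. None was called lower by edgeR, 1 was at an unadjusted p under 0.05, and DESeq2 called IL1B lower. In control tumors against control monolayers 6 of 22 were higher and 15 lower, against 33.9% and 31.0% of all genes. In null tumors against null monolayers 7 of 22 were higher and 10 lower, against 34.6% and 35.3% of all genes. IL6 was at 0.830 CPM in control tumors and 0.586 CPM in null tumors, below both monolayer groups. The part of these genes in the complement levels was not tested.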

How the data were processed

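The authors deposited raw read counts per Ensembl gene for 16 libraries, used here as deposited. Trimmomatic 0.39, STAR 2.7.10a, featureCounts 2.0.3 and the build GRCh37 are named in the submitters' processing notes. The labels' protocols name a stranded mRNA kit. The sources used here do not give the strand setting, the annotation or the handling of host reads, so host reads can be counted on human genes. A names table gave symbols for 19446 IDs and GENCODE v29 for 65, and 845 had none. Exon lengths and chromosomes came from GENCODE v29 (GRCh38) by Ensembl ID.

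Counts were fitted over all genes in edgeR 4.0.16 (R 4.3.3, quasi-likelihood test, TMM, filterByExpr, Benjamini-Hochberg at 0.05), 1 coefficient per group. The fit was also run on simulated counts drawn from its own estimates of the spread, with few changed genes. That setting differs from the comparisons in which most genes changed, so it does not check the calls there. Alternatives were DESeq2 1.42.0, other scalings and filters, a replicate block, a 16-library model, chromosome centring and leaving out each library. All 9 genes are described. Of the wider list the 2 called genes with the largest change and at least 1 CPM, of the inducers the 2 with the smallest p per genotype comparison, and per member the 2 genes most correlated over libraries (log2 CPM, prior count 2) are named. The 9 genes and the lists were chosen with earlier results of these data known. Replicates differed beyond sampling noise in all 24 pairs.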

Additional observations from a re-analysis of the deposited data

Results flagged for a closer look

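In 3 genes the difference of the 2 genotype effects, in tumors minus in monolayers, passed the test on the log2 scale. Of all 13603 genes tested, 26.0% were called higher and 26.8% lower, so the call alone does not set these genes apart. The difference was 2.93 for C1S, 2.63 for C1R and 2.63 for C3, and for C3 it was 0.47 without null tumor 1.

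A single library lay far from the other 3 of its group in 5 of 27 groups of values examined. Chance gives about 1 in 20 for independent, normally spread values. The 27 groups share libraries, and counts near 0 move in whole steps, so the 5 cannot be set against that rate. C3 had 62.6 CPM in null tumor 1 against 3.24 to 4.87 CPM in the other null tumors. SERPING1 had 50.3 CPM in the same library against 4.05 to 6.60 CPM. CD55 had 1305.9 CPM in null monolayer 2 against 1187.3 to 1196.6 CPM, and 429 CPM in control tumor 1 against 347 to 361 CPM. CFB had 0.110 CPM in control monolayer 3, which is 2 counts, against 0.0647 to 0.0718 CPM, which is 1 count each.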

How the results depend on the processing

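Of 588 log2 changes of single genes refitted under an alternative, 543 kept direction and side of the threshold, 18 lost the call, 8 gained one and 19 changed sign. Of 174 counts of calls, 160 stayed within 1.5 times. Members called between tumors fell from 1 to 0 with library totals and ranged from 0 to 1 on leaving out each library. Wider genes called between tumors went from 0 to 1 with DESeq2, no filter, the replicate block and the 16-library model, and ranged from 0 to 1 on leaving out each library. With no filter 21 wider genes and not 13 were called for control tumors over control monolayers, and 28 and not 17 for null tumors over null monolayers. DESeq2 called 468 genes of all higher and 397 lower between tumors, against 127 and 143 by edgeR. Library totals moved the median of all genes from 0.02 to 0.19 for control tumors over control monolayers and from -0.017 to -0.16 for the difference of the genotype effects.

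Signs changed in the following cases, and for C3 under the replicate block given below. CD46 was -0.01 between tumors with library totals. For null tumors over null monolayers it was -0.01 with no filter, -0.0069 in the 16-library model and -0.016 with chromosome centring. The difference of genotype effects for CD55 was -8.1e-05 with library totals. On leaving out each library, changes between tumors ranged from -0.14 to 0.36 for C1R, -0.47 to 2.09 for C3, -0.0048 to 0.12 for CD46 and -0.061 to 1.86 for SERPING1. For null tumors over null monolayers they ranged from -1.66 to 0.88 for C3 and -0.044 to 0.099 for CD46, for CD59 in monolayers from -0.04 to 0.12, and for C1S in control tumors over control monolayers from -0.089 to 0.17. Apart from left-out libraries, the cause of these shifts was not tested.

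Same-numbered libraries correlated in their deviations from the group mean with r of -0.16 to 0.274, above 0.1 in 5 of 16 pairs, and 6 of 16 correlated best with their own number, so they share only a number. With the replicate block C3 was -0.64 for null tumors over null monolayers, CD59 for control tumors over control monolayers was 0.23 (edgeR adjusted p = 0.0405), and the CD46 difference of genotype effects was 0.34 (edgeR adjusted p = 0.0297). CFB and CFI had too few counts for a change to be measured, and the parts of depth and of shared exons in this were not tested.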
